A study of Mus musculus with 16 samples.

Results

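Galectins are lectins that bind galactose-containing sugars, and their transcripts were followed here over 4 populations of sorted mouse cells together with that of a glycoprotein they bind. The 5 genes, Lgals1, Lgals3, Lgals8, Lgals9 and Lgals3bp, were given by name and found by their Ensembl identifiers among 50600 genes in the count table. All 5 were present, and all 5 were among the 16345 genes that had enough reads to be tested. They were chosen with earlier results of these libraries known.

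The study compared CD11c-positive cells of the ischemic brain with microglia, the resident macrophages of the brain, by RNA sequencing of bulk sorted cells in 16 libraries from male mice aged 13 to 14 weeks. Cells positive for CD11c-eYFP came from the ischemic (ipsilateral) hemisphere (4 libraries) and the spleen (4 libraries) of Tg(Itgax-Venus)1Mnz mice, in which the promoter of the CD11c gene Itgax drives a yellow fluorescent protein. CX3CR1-positive microglia were sorted from the ischemic hemisphere (4 libraries) and from control brain (4 libraries) of CX3CR1CreERT2:Rosa26-tdT mice, in which an inducible Cre under the Cx3cr1 promoter switches on a red reporter. The microglial and the CD11c groups therefore differ in mouse line as well as in population, and these cannot be told apart. The sources used here give neither the time after ischemia nor whether the spleen came from ischemic mice. Nor is it stated that each library is a different mouse or a pool, and the spread behind each p-value may be partly technical.

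Each library held 31569304 to 48245164 counted reads. Levels are CPM, the reads of a gene scaled to a fixed library size after TMM, a correction for differences in library composition, and a gene is called where its adjusted p is under 0.05. The sorted identities were checked against marker lists. Itgax itself averaged 756 CPM in CD11c cells of the ischemic brain, 573 CPM in spleen CD11c cells, 77.2 CPM in ischemic microglia and 30.4 CPM in control microglia. The 6 microglia markers summed to 5550 to 6130 CPM in CD11c cells of the ischemic brain, 195 to 279 CPM in spleen CD11c cells, 14000 to 17700 CPM in ischemic microglia and 20900 to 24500 CPM in control microglia. The spleen libraries also carried B and plasma cell transcripts, with 5990 to 10100 CPM summed over 5 of 5 markers, against 15.1 CPM or less in any brain library. CD11c libraries of the ischemic brain fell apart into replicates 1 and 2, whose titles name EYFP, and replicates 3 and 4, whose titles do not. On the third principal component the first 2 scored -18.7 and -22.9 and the others 49.7 and 65.3. For the 5 genes, differences that use this group are also given with each pair alone where the pairs part them by more than 1.5-fold or change a call or a sign.

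Galectins are made in the cytosol and leave the cell without a signal peptide. Outside, they crosslink sugars of surface glycoproteins, and inside, several of them bind sugars that are laid bare when a lysosome or phagosome membrane breaks. Galectin-1 (Lgals1) has a single sugar-binding domain, galectin-3 (Lgals3) has such a domain behind a long flexible tail, and galectin-8 (Lgals8) and galectin-9 (Lgals9) carry a pair of them in tandem. Lgals3bp is a secreted, heavily glycosylated protein of the scavenger receptor family that binds galectin-3. Galectin-3 is widely used as a marker of reactive microglia and macrophages, and Lgals9 and Lgals3bp are known as interferon-inducible genes.

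The difference in domains can be read in the coding sequence. Each galectin fold holds a sugar-contacting core of histidine, any residue, asparagine, proline and arginine, and its codons (capitals, 5′ to 3′, from the longest annotated coding transcript of GENCODE release M21 on GRCm38) are shown with 1 codon before and 2 after. The core began at codon 45 of 135 in Lgals1, at codon 172 of 264 in Lgals3, at codons 64 and 237 of 325 in Lgals8 and at codons 60 and 265 of 353 in Lgals9. No such core was found in the 577 codons of Lgals3bp, which is not a galectin.
Lgals1: ctaCACTTCAATCCTCGCttcaat
Lgals3: ttcCACTTTAACCCCCGCttcaat
Lgals8, copy 1: ttcCACTTTAACCCTCGGttcaaa
Lgals8, copy 2: ctgCACTTGAACCCACGCctcaat
Lgals9, copy 1: ttcCACTTCAACCCCCGGtttgag
Lgals9, copy 2: ttcCACCTGAACCCCCGTttcaat

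Lgals1 (ENSMUSG00000068220, GRCm38 chromosome 15, 78926725 to 78930465, plus strand, protein-coding) was highest in CD11c cells of the ischemic brain. It stood at 547.2, 404.7, 109.5 and 145.1 CPM in CD11c cells of the ischemic brain (replicates 1 to 4), and at 50.15, 72.43, 64.14 and 66.24 CPM in spleen CD11c cells. Ischemic microglia had 72.05, 82.77, 70.33 and 94.36 CPM and control microglia 11.94, 16.06, 17.19 and 20.77 CPM. Every CD11c library of the ischemic brain lay above every other library, spleen CD11c cells and ischemic microglia overlapped, and control microglia lay below all. In bulk libraries such as these, fewer cells of a type and less RNA per cell cannot be told apart. Its 2 annotated processed pseudogenes, Lgals1-ps1 and Lgals1-ps2, had 0 counts in all 16 libraries.

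Lgals3 (ENSMUSG00000050335, chromosome 14, 47367751 to 47386160, plus strand, protein-coding) had the widest range of the 5 as a ratio of its highest to its lowest group. It stood at 1110, 938.3, 421.8 and 503.2 CPM in CD11c cells of the ischemic brain, and at 104.1, 89.93, 100.6 and 95.21 CPM in spleen CD11c cells. Ischemic microglia had 64.83, 55.29, 70.51 and 62.63 CPM and control microglia 6.397, 5.917, 9.439 and 11.47 CPM. The 4 groups did not overlap in Lgals3, with control microglia lowest. The low level in control microglia still rested on 231 to 459 reads in a library.

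Lgals9 (ENSMUSG00000001123, chromosome 11, 78962974 to 78984946, minus strand, protein-coding) had another order. It stood at 439.9, 403.1, 277.5 and 318.1 CPM in CD11c cells of the ischemic brain, and at 77.52, 60.11, 50.83 and 62.44 CPM in spleen CD11c cells. Ischemic microglia had 638.5, 682.3, 638.8 and 754.5 CPM and control microglia 357.7, 324.5, 310.3 and 361.8 CPM. Ischemic microglia were above all other libraries and spleen CD11c cells below all, while CD11c cells of the ischemic brain and control microglia overlapped.

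Lgals3bp (ENSMUSG00000033880, chromosome 11, 118392751 to 118402092, minus strand, protein-coding) followed the same order with a larger step in microglia. It stood at 978.2, 1128, 852.9 and 896.5 CPM in CD11c cells of the ischemic brain, and at 207.5, 135.3, 131.4 and 173.5 CPM in spleen CD11c cells. Ischemic microglia had 2164, 1975, 2430 and 2095 CPM and control microglia 240.0, 300.8, 370.2 and 341.4 CPM. No groups overlapped for Lgals3bp, and its order fell from ischemic microglia through CD11c cells of the ischemic brain and control microglia to spleen CD11c cells.

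Lgals8 (ENSMUSG00000057554, chromosome 13, 12439415 to 12464944, minus strand, protein-coding) varied least. It stood at 133.3, 132.3, 104.5 and 109.6 CPM in CD11c cells of the ischemic brain, and at 73.87, 65.91, 70.28 and 65.66 CPM in spleen CD11c cells. Ischemic microglia had 126.3, 111.8, 126.7 and 140.3 CPM and control microglia 125.1, 141.8, 129.1 and 126.0 CPM. The 3 brain groups overlapped and spleen CD11c cells lay below them all. Exons of Lgals8 share 155 bases with exons of Heatr1 on the opposite strand. The kit marks strand, but the strand setting of the counting is not known from the sources, so reads in this stretch cannot be assigned with certainty.

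**Figure D1:**
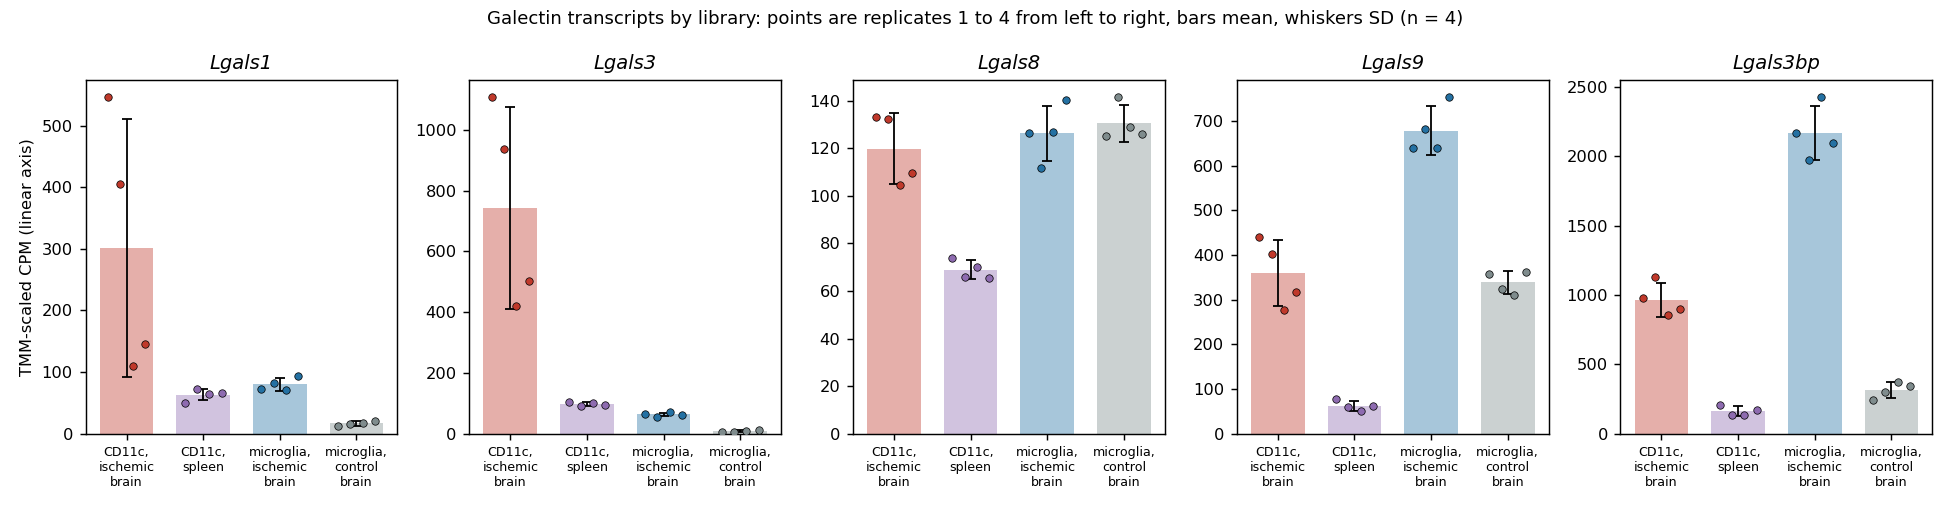
TMM-scaled CPM on a linear axis for the 5 genes in CD11c cells of the ischemic brain, spleen CD11c cells, ischemic microglia and control microglia; points are replicates 1 to 4 from left to right, bars are means and whiskers SDs (n = 4). Lgals1 and Lgals3 peak in CD11c cells of the ischemic brain, at up to 547.2 and 1110 CPM, and Lgals9 and Lgals3bp in ischemic microglia, at up to 754.5 and 2430 CPM.

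Levels of different genes can be set side by side only per length of transcript, here CPM per kilobase of merged exons. In CD11c cells of the ischemic brain Lgals3 averaged 400 ± 180 CPM per kilobase, Lgals3bp 338.5 ± 42.5, Lgals1 334 ± 233, Lgals9 168.3 ± 35.03 and Lgals8 32.5 ± 4.07 (SD, n = 4). The first 3 of these did not differ beyond their spread. In spleen CD11c cells the values per kilobase ran from 70.0 ± 10.4 for Lgals1 to 18.7 ± 1.06 for Lgals8. In ischemic microglia Lgals3bp averaged 761 ± 67.7 CPM per kilobase and Lgals9 317.5 ± 25.6, against 88.5 ± 12.3 for Lgals1, 34.2 ± 3.15 for Lgals8 and 34.1 ± 3.39 for Lgals3. In control microglia Lgals9 led with 158 ± 11.8 CPM per kilobase, followed by Lgals3bp with 110 ± 19.8, and Lgals3 was the lowest with 4.47 ± 1.41.

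Expressed as shares of the 5 summed per-length levels, Lgals1 and Lgals3 together made up 43.2% to 67.3% in CD11c libraries of the ischemic brain and 46.3% to 58.4% in spleen CD11c libraries. They made up 8.89% to 10.9% in ischemic microglia and 5.52% to 8.27% in control microglia. Lgals9 and Lgals3bp together held 86.1% to 88.5% in ischemic microglia and 81.3% to 83.3% in control microglia. The make-up of the 5 transcripts thus separated all CD11c libraries from all microglia libraries, although the summed level separated them differently. That sum was 806.1 to 1789 CPM per kilobase in CD11c cells of the ischemic brain, 214.2 to 240.8 in spleen CD11c cells, 1165 to 1303 in ischemic microglia and 302.3 to 352.6 in control microglia.

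**Figure D2:**
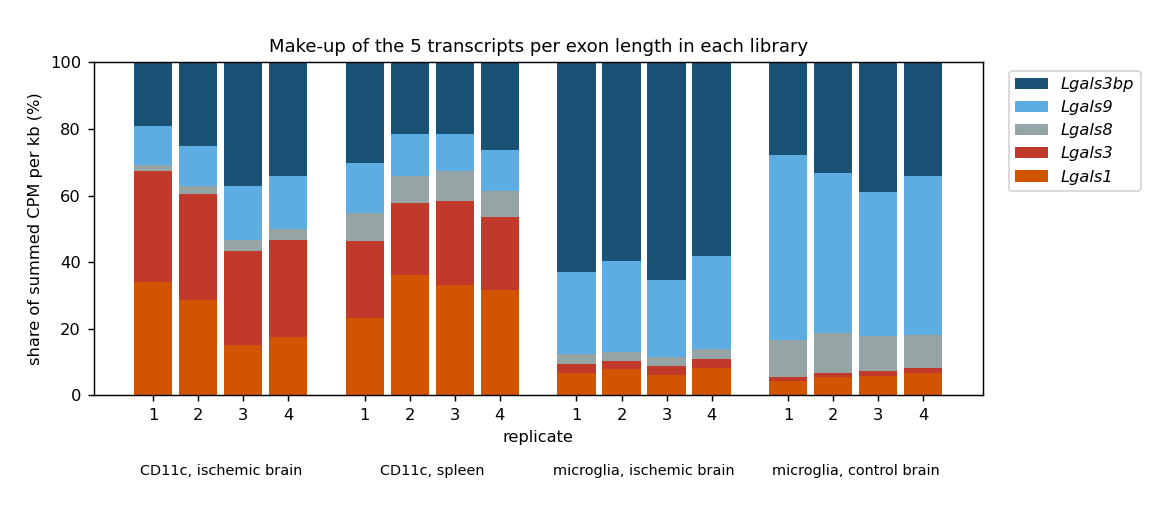
Share of each of the 5 transcripts in their summed CPM per kilobase of exon (percent, stacked to 100), with a bar for each library, in CD11c cells of the ischemic brain, spleen CD11c cells, ischemic microglia and control microglia. Lgals1 and Lgals3 (lower segments) take 43.2% or more of every CD11c bar and 10.9% or less of every microglia bar.

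The contrast named in the title of the series sets CD11c cells of the ischemic brain against ischemic microglia. Of the 5 genes 2 were higher, 2 lower and 1 not called, where 38.8% of all genes were called (19.7% higher and 19.1% lower). The median log2 fold change was -0.07 over the 5 genes and 0 over all genes. Lgals3 averaged 743.4 ± 333.6 CPM in CD11c cells and 63.32 ± 6.30 CPM in microglia (SD, n = 4 each), 11.7-fold higher in CD11c cells (log2 3.55 ± 0.29, SE; adjusted p = 1.03e-07). Lgals1 averaged 301.6 ± 210.0 CPM in CD11c cells and 79.88 ± 11.1 CPM in microglia, 3.78-fold higher (log2 1.92 ± 0.39; adjusted p = 0.00101).

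The size of these differences depended on which CD11c libraries were used. With brain replicates 1 and 2 alone the log2 fold change was 4.02 for Lgals3 and 2.57 for Lgals1, and with replicates 3 and 4 alone it was 2.88 for Lgals3 (adjusted p = 1.9e-08) and 0.69 for Lgals1 (adjusted p = 0.00976). Both genes were called in either pair.

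Lgals9 and Lgals3bp went the other way. Lgals9 averaged 359.7 ± 74.9 CPM in CD11c cells and 678.5 ± 54.6 CPM in microglia, 0.53 times as much (log2 -0.92 ± 0.15; adjusted p = 0.000111). Lgals3bp averaged 963.8 ± 121 CPM in CD11c cells and 2166 ± 193 CPM in microglia, 0.445 times as much (log2 -1.17 ± 0.16; adjusted p = 2.82e-05). These groups did not overlap for either gene, and the share of all genes without overlap is not given here. Lgals8 was not called (log2 -0.07, 95% interval -0.28 to 0.13; adjusted p = 0.59), and its sign turned to 0.03 with library totals in place of TMM and to 0.07 with brain replicates 1 and 2 alone.

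Ischemic microglia were compared with control microglia. Of the 5 genes 4 rose, none fell and Lgals8 was not called, where 35.7% of all genes were called (17.7% higher and 18.0% lower). The median log2 fold change was 2.28 over the 5 genes and -0.051 over all genes. Lgals3bp rose 6.92-fold to 2166 ± 193 CPM in ischemic microglia, against 313.1 ± 56.5 CPM in control microglia (log2 2.79 ± 0.17; adjusted p = 2.28e-08). Lgals3 rose 7.63-fold to 63.32 ± 6.30 CPM in ischemic microglia, against 8.31 ± 2.62 CPM in control microglia (log2 2.93 ± 0.28; adjusted p = 2.56e-06).

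Lgals1 rose 4.85-fold to 79.88 ± 11.1 CPM in ischemic microglia, against 16.49 ± 3.64 CPM in control microglia (log2 2.28 ± 0.39; adjusted p = 0.000435). Lgals9 was 678.5 ± 54.6 CPM in ischemic microglia and 338.6 ± 25.2 CPM in control microglia, a 2.00-fold rise (log2 1.00 ± 0.15; adjusted p = 9.26e-05). No library of either group crossed into the other for these 4 genes, and how often this holds over all genes is not given here. Lgals8 stood at 126.3 ± 11.6 CPM in ischemic microglia and 130.5 ± 7.74 CPM in control microglia (log2 -0.05, 95% interval -0.25 to 0.16; adjusted p = 0.744).

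Markers of other cells that express galectins were read in the same libraries. Of the 6 monocyte markers, 3 had a median of 1 CPM or more in ischemic microglia and 2 in control microglia. Their sum was 1150 to 2530 CPM in ischemic microglia and 21.1 to 38.9 CPM in control microglia, and nearly all of the first was fibronectin (Fn1, 1130 to 2510 CPM). The monocyte genes Ly6c2 and Chil3 stood at 1.04 CPM or less in every microglia library, and Ccr2, the receptor that draws monocytes into tissue, averaged 13.8 CPM in ischemic and 27.9 CPM in control microglia. Plac8 ran the other way, at 2.1 to 10.5 CPM in ischemic and 0.664 to 1.09 CPM in control microglia, as did the mean of Chil3, at 0.489 CPM in ischemic and 0.0165 CPM in control microglia. The neutrophil genes S100a8 and S100a9 were at 0.505 CPM or less in both. The neutrophil list of 7 summed to 591 to 870 CPM in ischemic and 754 to 851 CPM in control microglia, almost wholly Csf3r, with Camp at 0 in ischemic microglia and Ngp and Retnlg at 0 in control microglia. The list of 6 border macrophage markers summed to 511 to 651 CPM in ischemic and 528 to 1060 CPM in control microglia. All 6 had a median of 1 CPM or more in both groups. The part of cells that carry these markers in the galectin differences was not tested.

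Brain and spleen CD11c cells come from the same reporter line, and the next comparison sets one against the other. All 5 genes were higher in the brain, where 64.2% of all genes were called (31.2% higher and 33.0% lower). The median log2 fold change was 2.52 over the 5 genes and -0.036 over all genes. Lgals3 averaged 743.4 ± 333.6 CPM in brain and 97.46 ± 6.21 CPM in spleen (7.63-fold; log2 2.93 ± 0.28; adjusted p = 1.79e-07), and its log2 fold change was 3.40 with brain replicates 1 and 2 alone and 2.21 with replicates 3 and 4 alone. Lgals3bp averaged 963.8 ± 121 CPM in brain and 161.9 ± 35.8 CPM in spleen (5.95-fold; log2 2.57 ± 0.17; adjusted p = 1.81e-09), and Lgals9 359.7 ± 74.9 and 62.73 ± 11.1 CPM (5.73-fold; log2 2.52 ± 0.15; adjusted p = 6.94e-10).

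Lgals1 averaged 301.6 ± 210.0 CPM in brain and 63.24 ± 9.41 CPM in spleen (4.77-fold; log2 2.25 ± 0.39; adjusted p = 0.00012). Its log2 fold change was 2.92 with brain replicates 1 and 2 alone and 0.97 with replicates 3 and 4 alone (adjusted p = 0.000436). Lgals8 averaged 119.9 ± 15.0 CPM in brain and 68.93 ± 3.92 CPM in spleen, a 1.74-fold difference (log2 0.80 ± 0.10; adjusted p = 2.77e-06). Brain and spleen libraries did not overlap for any of the 5. How often libraries of these groups stand apart over all genes is not given here. The B and plasma cell markers of the spleen libraries, given above, and the microglia markers of the brain libraries moved with this comparison. The 7 neutrophil markers summed to 252 to 408 CPM in brain and 300 to 1050 CPM in spleen, which overlap. S100a9 was at 0 to 1.83 CPM in brain and 111 to 436 CPM in spleen, whereas Csf3r averaged 307 CPM in brain and 108 CPM in spleen. The part of these cells in the galectin differences was not tested.

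The remaining pairs complete the order of the groups and share libraries with the comparisons above. Against control microglia, CD11c cells of the ischemic brain had 3 of the 5 higher, none lower and 2 not called, where 58.9% of all genes were called (29.3% higher and 29.6% lower). Lgals3 was 89.5-fold higher in CD11c cells (log2 6.48 ± 0.33; adjusted p = 3.08e-10), the largest of the 30 differences among the 5 genes and 6 pairs. Lgals1 was 18.3-fold higher (log2 4.19 ± 0.43; adjusted p = 6.65e-07) and Lgals3bp 3.08-fold higher (log2 1.62 ± 0.16; adjusted p = 4.17e-07). With brain replicates 1 and 2 alone the log2 fold change was 6.95 for Lgals3 and 4.85 for Lgals1, and with replicates 3 and 4 alone it was 5.80 for Lgals3 and 2.95 for Lgals1, all called. Lgals9 was not called (log2 0.09, 95% interval -0.22 to 0.40; adjusted p = 0.634). Its sign turned to -0.19 with brain replicates 3 and 4 alone. Lgals8 was not called either (log2 -0.12; adjusted p = 0.298). It was lower with brain replicates 3 and 4 alone (log2 -0.29; adjusted p = 0.0236), and its sign turned to 0.02 with replicates 1 and 2 alone.

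Spleen CD11c cells had 2 of the 5 genes higher and 3 lower than control microglia, where 68.8% of all genes were called (37.1% higher and 31.7% lower). Lgals3 was higher by 3.55 ± 0.29 and Lgals1 by 1.94 ± 0.39 log2 units (adjusted p = 1.86e-08 and 0.000381). Lgals9 was lower at a log2 fold change of -2.43 ± 0.15, Lgals3bp at -0.95 ± 0.16 and Lgals8 at -0.92 ± 0.10 (adjusted p = 5.39e-10, 6.76e-05 and 3.69e-07). Against ischemic microglia, spleen CD11c cells had 1 higher, 3 lower and 1 not called, where 68.5% of all genes were called (37.2% higher and 31.3% lower). Lgals3bp was lower at a log2 fold change of -3.74 ± 0.18 and Lgals9 at -3.44 ± 0.16 (adjusted p = 2.07e-11 and 1.41e-11), and Lgals8 at -0.87 ± 0.10 (adjusted p = 6.93e-07).

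Spleen CD11c cells and ischemic microglia were neighbours in the order of Lgals1 and Lgals3. Lgals1 averaged 63.24 ± 9.41 CPM in spleen CD11c cells and 79.88 ± 11.1 CPM in ischemic microglia (log2 -0.34, 95% interval -1.13 to 0.46; adjusted p = 0.437), and its sign turned to 0.04 with library totals in place of TMM. Lgals1 was lower with only these groups in the fit (log2 -0.42; adjusted p = 0.012). The interval of the main fit rests on a spread estimated over all groups. The SD of Lgals1 was 69.6% of its mean in CD11c cells of the ischemic brain. In spleen CD11c cells it was 14.9% and in ischemic microglia 13.9%. Lgals3 averaged 97.46 ± 6.21 CPM in spleen CD11c cells and 63.32 ± 6.30 CPM in ischemic microglia, 1.54-fold higher (log2 0.62 ± 0.26; adjusted p = 0.0443). That call was lost when any library but ischemic microglia replicate 3 was left out of the 8, with adjusted p between 0.053 and 0.0796. It held with only these groups in the fit (log2 0.53; adjusted p = 0.000324).

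**Figure D3:**
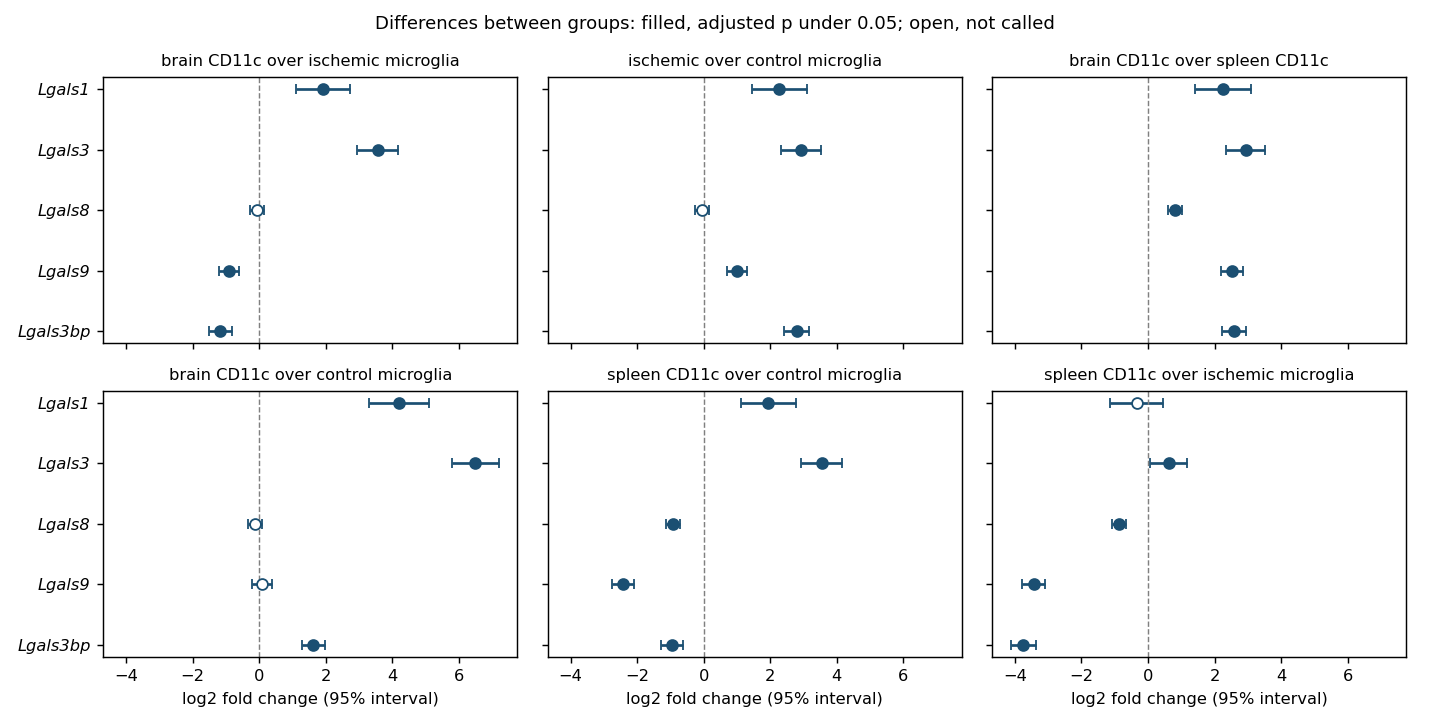
Log2 fold changes of the 5 genes in 6 comparisons, with 95% intervals from the edgeR fit on a shared axis; filled points have an adjusted p under 0.05 and open points were not called. Lgals1 and Lgals3 lie above 0 and Lgals9 and Lgals3bp below 0 in CD11c cells of the ischemic brain against ischemic microglia, at 3.55, 1.92, -0.92 and -1.17 for Lgals3, Lgals1, Lgals9 and Lgals3bp.

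Within CD11c cells of the ischemic brain the 5 genes differed in how far the libraries stood apart. The mean of replicates 1 and 2 was 3.74 times that of replicates 3 and 4 for Lgals1 (475.9 against 127.3 CPM) and 2.21 times for Lgals3 (1024 against 462.5 CPM). It was 1.42 times for Lgals9, 1.24 times for Lgals8 and 1.20 times for Lgals3bp. Per length, the ratio of Lgals3 to Lgals1 was 0.986 and 1.13 in replicates 1 and 2, against 1.87 and 1.69 in replicates 3 and 4. With 2 libraries on each side these values are given without a test.

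Cell type markers moved with this split. The monocyte list, of which 6 of 6 had a median of 1 CPM or more in this group, summed to 5790 and 4840 CPM in replicates 1 and 2, against 2320 and 1510 CPM in replicates 3 and 4. Most of that was Fn1, with 4500 and 3750 CPM against 1290 and 449 CPM. Chil3, a chitinase-like protein of monocytes and macrophages, stood at 360 and 245 CPM against 35.3 and 30.0 CPM. Ccr2 was 656 and 686 CPM against 611 and 535 CPM, and Plac8 ran the other way with 165 and 132 CPM against 319 and 449 CPM.

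The list of 6 border macrophage markers summed to 727 and 589 CPM in replicates 1 and 2, against 184 and 206 CPM in replicates 3 and 4. F13a1 and Mrc1 carried most of that sum, and Lyve1 (1.7 and 0.364 against 3.96 and 3.61 CPM) and Cd163 (6.35 and 3.45 against 11.4 and 20.2 CPM) ran the other way. The list of 7 conventional dendritic cell markers ran the other way, with 847 and 1190 CPM against 1720 and 1830 CPM, and Flt3, a dendritic cell growth factor receptor, stood at 116 and 161 CPM against 404 and 351 CPM. The 4 oligodendrocyte markers summed to 135 and 122 CPM against 292 and 341 CPM. The part of these cells in the levels of Lgals1 and Lgals3 was not tested.

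The genes most like each member over the 16 libraries were found by the Pearson correlation of log2 CPM among 8425 genes with a mean of 20 CPM or more in some group. The libraries fall into 4 groups, so these values mostly describe group means. Closest to Lgals3 were Vim (r = 0.991), the intermediate filament protein vimentin, Fxyd5 (r = 0.988), a regulator of the sodium pump, and Rbms1 (r = 0.985). Vim averaged 1496 CPM in CD11c cells of the ischemic brain, 278.3 CPM in spleen CD11c cells, 190.1 CPM in ischemic microglia and 20.3 CPM in control microglia. Closest to Lgals1 were Emp3 (r = 0.990), an epithelial membrane protein family member, Ciao2a (r = 0.984) and Atp5f1 (r = 0.981), a subunit of the mitochondrial ATP synthase.

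The 3 genes closest to Lgals9 were the lysosomal cathepsins Ctsl (r = 0.991), Ctsa (r = 0.991) and Ctsd (r = 0.990). Ctsl averaged 1662 CPM in CD11c cells of the ischemic brain, 47.05 CPM in spleen CD11c cells, 3652 CPM in ischemic microglia and 1084 CPM in control microglia. Closest to Lgals3bp were Cst7 (r = 0.975), which encodes a cathepsin inhibitor, Bst2 (r = 0.968), the interferon-induced antiviral protein tetherin, and Cspg4 (r = 0.966). Bst2 averaged 238.3, 51.4, 293.8 and 99.6 CPM in the same order of groups. Closest to Lgals8 were Rtn4 (r = 0.986), Basp1 (r = 0.985) and Tspan31 (r = 0.983). Among the members, Lgals1 went with Lgals3 (r = 0.954) and Lgals9 with Lgals8 (r = 0.923) and Lgals3bp (r = 0.864), whereas Lgals3 and Lgals9 had an r of -0.064.

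Promoter windows of 250 bases before to 50 after the annotated start were held in the RefSeq table (GRCm38.p6) for 4 of the 5 genes, with none for Lgals1. Because Lgals9 and Lgals3bp were both highest in ischemic microglia and are known interferon targets, their windows are shown with matches to AANNGAAA, the core bound by interferon regulatory factors, in capitals. The motif was chosen after these sequences were seen, and both strands were searched. In the Lgals9 window (chr11:78984875-78985174, minus strand) it matched 3 times, at -151 and, on the other strand, at -55 and 15, counted to the first base of each match from the start as 0. In the Lgals3bp window (chr11:118401910-118402209, minus strand) it matched once, at -14.
Lgals9: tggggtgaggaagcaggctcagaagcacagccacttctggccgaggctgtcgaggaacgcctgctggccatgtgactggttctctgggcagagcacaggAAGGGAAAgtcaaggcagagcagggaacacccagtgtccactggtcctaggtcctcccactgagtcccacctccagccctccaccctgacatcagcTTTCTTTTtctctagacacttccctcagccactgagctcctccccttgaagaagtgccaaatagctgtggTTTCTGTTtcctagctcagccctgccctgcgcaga
Lgals3bp: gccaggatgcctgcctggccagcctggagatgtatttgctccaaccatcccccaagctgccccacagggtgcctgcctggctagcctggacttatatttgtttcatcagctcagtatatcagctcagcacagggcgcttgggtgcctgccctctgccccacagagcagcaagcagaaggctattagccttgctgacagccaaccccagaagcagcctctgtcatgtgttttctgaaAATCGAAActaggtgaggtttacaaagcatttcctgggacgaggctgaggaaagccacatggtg

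A match is common, since 7857 of 32851 windows in the table (23.9%) hold AANNGAAA on either strand. The letters were not found in the windows of Lgals3 and Lgals8. A GC box, GGGCGG, was found in the window of Lgals3 only, at -7 and 4, and in 35.7% of all windows. The AP-1 motif TGANTCA was found in none of the 4 windows and in 7.81% of all windows. None of these motifs overlapped another in the 4 windows. These matches describe the letters of the windows and do not show that a factor binds there.

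Other genes of the galectin system were read from lists. Of 7 further galectins and galectin-related genes (Lgals2, Lgals4, Lgals6, Lgals7, Lgals12, Lgalsl and Grifin) 3 could be tested, and edgeR called 0 of 3 in CD11c cells of the ischemic brain against ischemic microglia or spleen CD11c cells and in ischemic against control microglia. At an unadjusted p under 0.05 these comparisons held 0, 2 and 1 of them in edgeR. DESeq2 called 0 in each, and limma-voom called 1, between brain and spleen. Between spleen CD11c cells and ischemic microglia edgeR called Lgals4 higher (log2 1.14 ± 0.37) and Lgals2 lower (log2 -2.20 ± 0.68), where 68.5% of all genes were called. Lgals2 was barely detected, at 0.078 ± 0.027 CPM in spleen CD11c cells and 0.370 ± 0.070 CPM in ischemic microglia. These levels rest on 2 to 5 and 11 to 18 reads in a library. Lgals4, a galectin of the gut lining, stood at 5.54 ± 3.99 CPM in CD11c cells of the ischemic brain, 9.80 ± 0.79 CPM in spleen CD11c cells, 4.44 ± 0.83 CPM in ischemic microglia and 5.65 ± 1.09 CPM in control microglia. Lgals7 and Lgals12 had 6 and 7 reads in all libraries together. The 5 genes described here held 99.3% of the reads of all these genes together.

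The sugars that galectins bind are shaped by genes of N-glycan branching, capping and related steps, of which 14 were tested. In CD11c cells of the ischemic brain 2 were higher and 3 lower than in ischemic microglia (median log2 -0.106), a share near the 38.8% of all genes called. St3gal4, which caps chains with sialic acid, was higher by 2.08 ± 0.19 log2 units and the branching enzyme Mgat2 by 0.59 ± 0.10. Gcnt1, which starts branches on O-glycans, was lower (log2 -0.91 ± 0.13), as was Mgat4a, another branching enzyme (log2 -0.81 ± 0.10). Mgat5, whose branches are favoured ligands of galectin-3, averaged 129.4 ± 52.5 CPM in CD11c cells and 142.7 ± 10.1 CPM in microglia (log2 -0.14; adjusted p = 0.637).

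In ischemic against control microglia 2 of the 14 rose and 2 fell (median log2 -0.064), beside 35.7% of all genes called, with the trimming enzyme Man2a1 higher by 1.94 ± 0.34 and B4galt1, which adds galactose, by 0.44 ± 0.13 log2 units. Mgat1, which opens the branching pathway, was lower (log2 -0.52 ± 0.09), as was Gcnt1 (log2 -0.40 ± 0.13). Between CD11c cells of the ischemic brain and spleen 8 of 14 were higher and 3 lower (median log2 0.444), beside 31.2% and 33.0% of all genes. B4galt1 was higher in brain by 1.82 ± 0.13 and Mgat4b, a branching enzyme, by 1.73 ± 0.14 log2 units. Fut8, which adds core fucose, was lower (log2 -1.70 ± 0.18). St6gal1, whose sialic acid cap blocks the binding of galectin-1, was lower (log2 -2.03 ± 0.24), with 103.7 ± 38.3 CPM in brain and 422.8 ± 100.6 CPM in spleen. The B and plasma cell markers of the spleen libraries moved with this comparison, and their part was not tested.

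Of 17 surface and lysosomal partners of galectins tested, 4 were higher and 7 lower in CD11c cells of the ischemic brain than in ischemic microglia (median log2 -0.18), beside 38.8% of all genes called. Cd44, a hyaluronan receptor that galectin-3 and galectin-9 bind, averaged 438.2 ± 165 CPM in CD11c cells and 34.96 ± 9.94 CPM in microglia (log2 3.65 ± 0.26; adjusted p = 2.01e-08). Cd7, a receptor of galectin-1 on T cells, averaged 19.6 ± 6.22 CPM in CD11c cells but only 0.0842 ± 0.0303 CPM in microglia. Its log2 fold change of 7.80 ± 0.46 thus rests on a near-absent transcript in microglia. Lag3, to which galectin-3 has been reported to bind, was lower (log2 -1.96 ± 0.31), as was Mertk, a receptor for dying cells (log2 -1.30 ± 0.13).

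Havcr2 (TIM-3), the receptor best known for galectin-9, was not called in CD11c cells of the ischemic brain against ischemic microglia, with 336.7 ± 22.8 CPM and 441.4 ± 53.0 CPM (log2 -0.39; adjusted p = 0.0637). In ischemic against control microglia 5 of the 17 partners rose and 1 fell (median log2 0.384), a share near the 35.7% of all genes called. Cd44 rose by 2.53 ± 0.25 and Itga5, the fibronectin receptor chain, by 2.28 ± 0.24 log2 units, while Tlr4 fell by 0.93 on the log2 scale. The lysosomal membrane proteins Lamp1 and Lamp2 rose by 0.83 and 0.84. Trem2, a lipid receptor of microglia reported to bind galectin-3, averaged 1203 ± 156 CPM in ischemic and 1262 ± 125 CPM in control microglia (log2 -0.07; adjusted p = 0.736).

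Between CD11c cells of the ischemic brain and spleen 12 of the 17 partners were higher and 4 lower (median log2 1.52), beside 31.2% and 33.0% of all genes. Trem2 averaged 576.3 ± 56.9 CPM in brain and 0.393 ± 0.116 CPM in spleen (log2 10.5 ± 0.22; adjusted p = 7.42e-15). Itga5 was higher by 4.54 ± 0.26 log2 units, and the surface glycoprotein genes Spn and Cd7 were lower (log2 -2.54 ± 0.23 and -2.43 ± 0.29). T and natural killer cell markers summed to 1.09 to 8.83 CPM in brain and 80.5 to 177 CPM in spleen, and Ncr1 was at 0 in brain. The part of these cells in the levels of Spn and Cd7 was not tested. Havcr2 was higher in brain by 1.73 ± 0.16 log2 units, with 336.7 ± 22.8 CPM in brain and 101.6 ± 29.2 CPM in spleen.

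**Figure D4:**
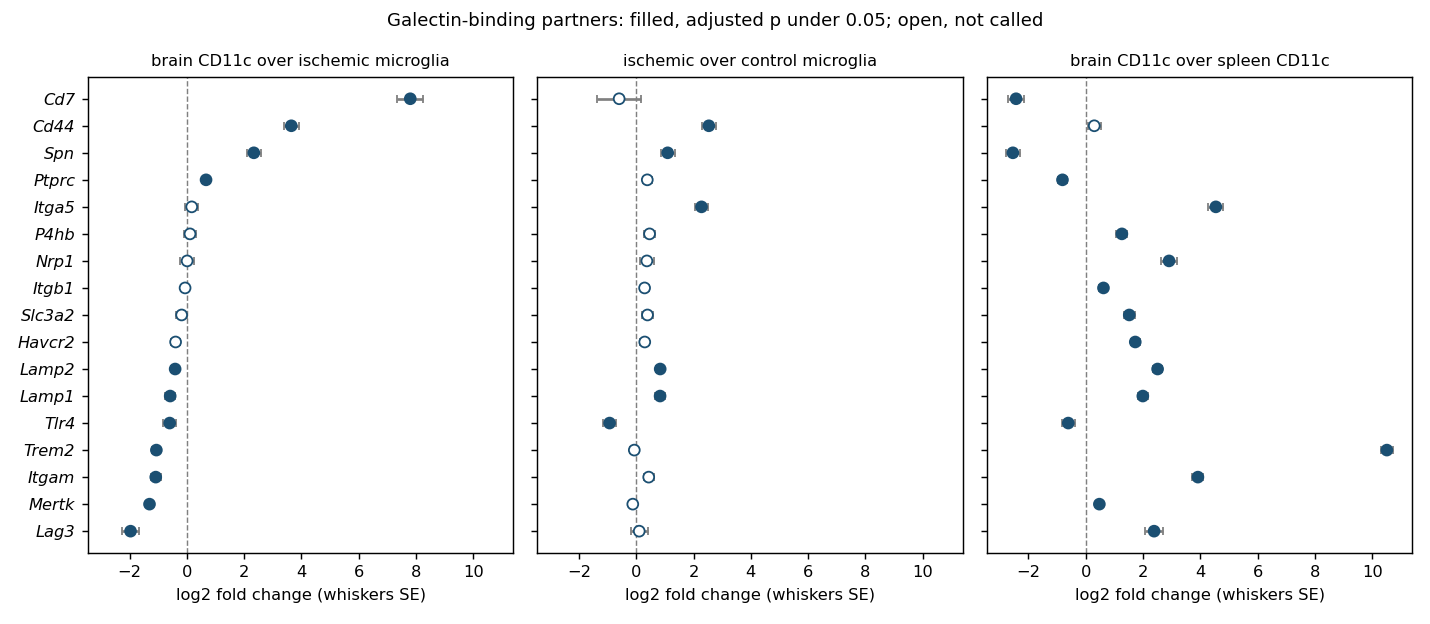
Log2 fold changes of 17 galectin-binding partners in CD11c cells of the ischemic brain against ischemic microglia, ischemic against control microglia, and CD11c cells of the ischemic brain against spleen, on a shared axis; whiskers are SEs, filled points have an adjusted p under 0.05 and open points were not called. The partners spread to both sides of 0 in the first panel, from -1.96 for Lag3 to 7.80 for Cd7, and 12 of 17 are higher in the third. Cd7 averaged only 0.0842 CPM in ischemic microglia.

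Genes of the response to damaged lysosomes, in which galectin-3, galectin-8 and galectin-9 act as sensors, were tested for 14 of 15. In CD11c cells of the ischemic brain 5 were higher and 3 lower than in ischemic microglia (median log2 0.18), beside 19.7% and 19.1% of all genes. Trim16, a ubiquitin ligase partner of galectin-3, averaged 6.78 ± 1.07 CPM in CD11c cells and 1.26 ± 0.341 CPM in microglia (log2 2.43 ± 0.22; adjusted p = 2.75e-07). Rraga, a GTPase that tethers mTORC1 to lysosomes, was higher by 0.69 ± 0.09 log2 units. Optn, an autophagy receptor, was lower (log2 -0.97 ± 0.30), as was the autophagy kinase Ulk1 (log2 -0.67 ± 0.15). In ischemic against control microglia 6 rose and 3 fell (median log2 0.127), beside 17.7% and 18.0% of all genes, but with library totals in place of TMM 5 were called in all. Optn rose by 1.87 ± 0.31 and the autophagy receptor Sqstm1 by 1.01 ± 0.18, whereas Trim16 fell by 1.08 and the lysosomal transcription factor gene Tfeb by 0.71 on the log2 scale.

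Between CD11c cells of the ischemic brain and spleen 10 of the 14 were higher and 1 lower (median log2 0.292), beside 31.2% and 33.0% of all genes, but with library totals 7 were called in all. Trim16 was higher in brain by 2.41 ± 0.22 and Sqstm1 by 2.07 ± 0.18 log2 units, and Tfeb was lower (log2 -0.73 ± 0.16). These comparisons share the libraries of CD11c cells of the ischemic brain or of ischemic microglia, so their values are not independent of each other.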

How the data were processed

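RNA of sorted cells was measured in 16 libraries of 4 groups, and the groups were read from the labels. The values deposited by the authors are whole-number counts of reads per Ensembl gene, without normalization. The submitters' processing notes name FastQC 0.11.5, STAR 2.5.3a and GRCm38, and the labels' protocols describe stranded libraries of polyadenylated RNA. No source used here gives the counting program, its strand setting or the annotation release. All 16 columns matched a sample. In all 24 pairs of libraries within a group, counts differed by more than sampling noise (chi-square at least 10.23 times its degrees of freedom).

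From the counts, edgeR 4.0.16 (R 4.3.3) was run with filterByExpr, TMM scaling, glmQLFit with robust estimation and the quasi-likelihood F test, on all 16 libraries in a model with a mean per group. Tests were two-sided, p-values were adjusted by Benjamini-Hochberg over 16345 genes, and the standard error is the log2 fold change divided by the square root of F. Levels are TMM-scaled CPM, and log2 CPM used a prior count of 2. Names, coordinates and exon lengths are from GENCODE M21. Counting error is small for the 5 genes at these depths, so replicate spread limits their precision. That spread was estimated over all groups, not only over the groups compared. The fit was checked on simulated counts.

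The members, the gene lists (written from general knowledge) and the alternatives were chosen with earlier results of these data known. List genes were named by rule: up to 2 called genes of largest change in each direction and comparison, with further genes allowed with values. Likeness was ranked by Pearson correlation, leaving out predicted genes, with 3 genes per member. Alternatives were DESeq2 1.42.0, limma-voom (limma 3.58.1), other scalings, no filter, only the groups compared, each pair of CD11c brain libraries alone, and each library left out. The level of 1 monocyte marker is not reported here.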

Additional observations from a re-analysis of the deposited data

How the results depend on the processing

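Of 240 values of the 5 genes with 1 library left out, 231 kept their direction and side of the threshold, 7 lost the call and 2 reached 0 or changed sign. Of 220 values under other alternatives, 210 kept both. All 7 lost calls were Lgals3 in spleen CD11c cells over ischemic microglia, at log2 0.595 to 0.723 over the libraries left out. It was also lost with no filter on low counts (0.506, adjusted p = 0.167). Those 2 were in genes not called, Lgals8 in brain CD11c cells over ischemic microglia (-0.114 to 0) and Lgals9 in brain CD11c cells over control microglia (-0.022 to 0.192). With library totals, Lgals8 was 0.033 in brain CD11c cells over ischemic microglia and Lgals1 0.044 in spleen CD11c cells over ischemic microglia. With brain replicates 1 and 2 alone, Lgals8 was 0.072 over ischemic and 0.024 over control microglia. With replicates 3 and 4 alone, Lgals8 was -0.289 (called) and Lgals9 -0.189 over control microglia. Lgals1 in spleen CD11c cells over ischemic microglia was called with only these groups in the fit (-0.424, adjusted p = 0.012). Beyond what each alternative leaves out, the cause was not tested.

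The count of the 5 genes called per comparison stayed within 1.5 times under all alternatives, as did the count of all genes called. Library totals moved the median of all genes to -0.199 in ischemic over control microglia, -0.302 in brain over spleen CD11c cells, and 0.336 and 0.5 in spleen CD11c cells over control and ischemic microglia, against -0.0507, -0.0358, 0.106 and 0.121 with TMM. The share of calls that were higher became 62.4% for brain CD11c cells over ischemic microglia, 33.5% for ischemic over control microglia, 34.9% for brain over spleen and 69.3% for spleen CD11c cells over ischemic microglia, against 50.7%, 49.5%, 48.6% and 54.3%. As many members were higher and as many lower under TMM, size factors and library totals in all 6 comparisons. Of the lists, the damaged lysosome genes called were 5 in ischemic over control microglia and 7 in brain over spleen with library totals, against 9 and 11, and further galectins 2 in brain over spleen, against 0.

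Spleen CD11c and ischemic microglia titles share the numbers 11, 13 and 14 although the mouse lines differ. Deviations of same-numbered libraries correlated at -0.05 to -0.02 and 0 of 3 correlated best with their own number. With so few libraries, this cannot decide whether the numbers pair the samples. With the number as a replicate block on those 6 libraries, 10530 genes were called and Lgals1 was among them (-0.24, adjusted p = 0.0404). A fit of the same libraries without the block, chosen after seeing the data, called 11064 genes and Lgals1 (-0.241, adjusted p = 0.041). No paired analysis was possible for the other comparisons because their groups share fewer than 2 numbers in the titles. In brain over spleen, the titles EYFP 11 Ipsi and EYFP 11 Sp share the number 11 within the same mouse line. Whether these libraries came from the same mouse is not stated, and their independence in that comparison was not tested.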
